A study of Mus musculus with 32 samples.

Results

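Satellite cells, the myogenic stem cells that lie against the muscle fibre, were compared with fibro-adipogenic progenitors (FAPs), the mesenchymal cells of the muscle interstitium, 3 days after injury. The comparison used 8 of the 32 libraries of the series: 4 of satellite cells and 4 of FAPs, both from injured muscle without a graft. It was chosen by cell type, treatment and day as the labels give them, and no measured value entered the choice. Mice were wild-type C57BL/6J males, 12 weeks old. In every group of the series the supraspinatus, a muscle of the rotator cuff, was injured with cardiotoxin, which comes from snake venom and lyses muscle fibres. Control muscle had the injury alone, while the grafted muscle used for 1 contrast below also received interscapular brown fat of 3-week-old donors. Uninjured muscle was not analysed here, so that each value describes injured tissue. Per the labels' protocol, the sort kept cells negative for CD45 (a leukocyte protein) and CD31 (an endothelial protein) and positive for Sca1, and divided them by integrin alpha 7 into satellite cells (positive) and FAPs (negative).

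A code in the labels ties a satellite cell library to a FAP library of the same mouse for 3 mice (2b, 3a and 3b). The remaining satellite cell library and the remaining FAP library carry no code. They were taken as 1 mouse, which is an inference, and are called the mouse without a code. Levels of 4 libraries are listed below in the order 2b, 3a, 3b, mouse without a code. A level is in CPM, the count of a gene scaled to the size of its library, here after trimmed-mean (TMM) scaling of the 8 libraries. A difference is the fitted log2 difference, satellite cells minus FAPs, with its standard error (SE). A gene was called higher or lower at an adjusted p under 0.05 in edgeR's quasi-likelihood test with the mouse as a block.

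After injury, satellite cells leave quiescence, divide as myoblasts, and then exit the cycle to fuse into new fibres. Pax7 marks the stem cell, Myf5 and Myod1 the committed myoblast, and Myog the cell that begins to differentiate. FAPs are known as the main source of interstitial matrix in muscle. They also release chemokines that attract leukocytes and growth factors that act on satellite cells. FAPs do not form muscle fibres, but can become fibroblasts or fat cells.

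Library totals were 21.9 to 46.4 M counts, and 3 counts correspond to 0.0649 to 0.144 CPM in a single library (a limit for counting error only). Of the 4 markers chosen for the cells, Itga7, which encodes integrin alpha 7, stood at 550.0, 340.2, 320.3 and 408 CPM in satellite cells and 5.58, 3.37, 3.45 and 4.42 CPM in FAPs. Pax7 and Pdgfra, the FAP receptor for platelet-derived growth factor, also separated the groups without overlap (values below). Ly6a, which encodes Sca1, stood at 2.19, 2.86, 6.53 and 30.0 CPM in satellite cells and 898, 921, 707 and 937 CPM in FAPs. The sorted satellite cells thus held little RNA of a protein that the labels give as a gate for both populations. The satellite cell library of the mouse without a code stood apart. Its 22 macrophage and monocyte genes summed to 1875 CPM, against 18.6 to 57.1 CPM in the other satellite cell libraries and 17.2 to 82.3 CPM in FAPs. Lyz2, a lysozyme of myeloid cells, stood there at 879 CPM and Ptprc, which encodes CD45, at 9.14 CPM. Its 28 FAP identity genes summed to 1064 CPM, against 572 to 760.3 CPM in the other satellite cell libraries and 18872 to 21882 CPM in FAPs. Without that mouse, 421 of 5854 genes called lower moved by over 1.5 times, against 74 of 5838 genes called higher. What part foreign RNA of that library has in any single result was not tested.

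**Figure D1:**
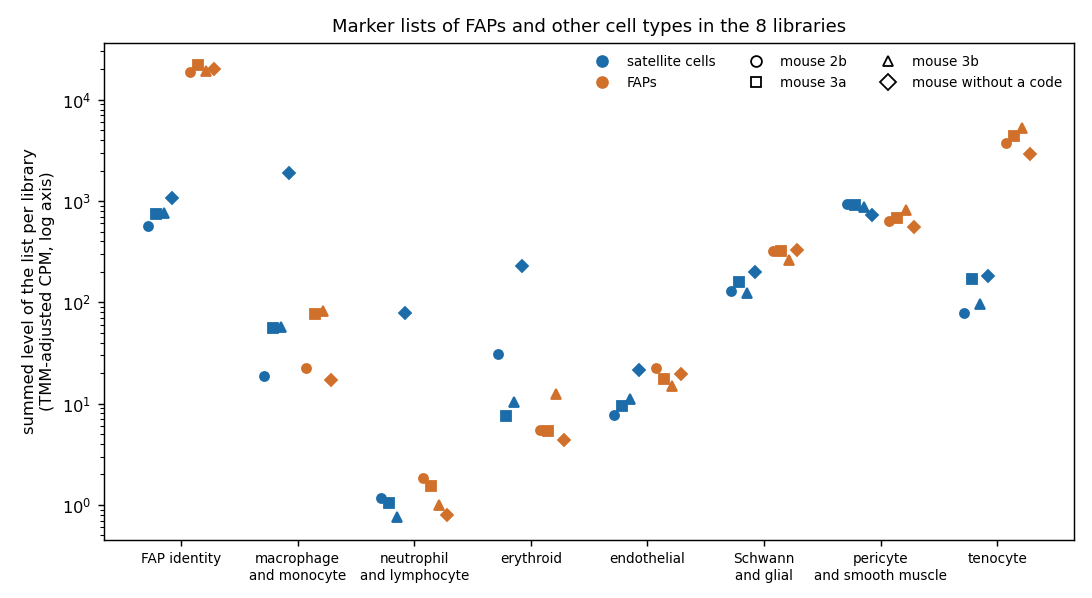
Summed levels of FAP identity genes and of marker lists of other cell types in each of the 8 libraries (y axis, TMM-adjusted CPM, log axis); colour gives the sorted cell type and the symbol the mouse. The satellite cell library of the mouse without a code lies far above the others for macrophage (1875 CPM), leukocyte (77.9 CPM) and erythroid genes (227 CPM), while the FAP identity sums of the groups do not overlap. The pericyte list includes Des, which is also a muscle gene.

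Promoter sequence is shown for 5 genes that stand for gene groups that differed together: synaptic receptor subunits, mitosis, interferon response and matrix proteases. The sequences are from RefSeq (GRCm38.p6, which is mm10), 250 bases before the annotated start, 5′ to 3′ on the strand of the gene. Capitals mark matches to 1 motif on either strand. The RefSeq start of Chrng lies inside the gene as GENCODE gives it, and coordinates of genes below are GENCODE's for mm10. For Chrng (chr1:87205561-87205810, plus strand) and Chrna1 (chr2:73580339-73580588, minus strand) the motif is CAGCTG, an E-box of the kind that myogenic basic helix-loop-helix factors bind. For Ube2c (chr2:164769679-164769928, plus strand) it is CCAAT, the NF-Y box of many cell cycle promoters. For Isg15 (chr4:156200819-156201068, minus strand) it is GAAA followed, after any 2 bases, by a second GAAA, the core of the interferon-stimulated response element. For Mmp3 (chr9:7445572-7445821, plus strand) it is TGANTCA, the AP-1 site.
Chrng: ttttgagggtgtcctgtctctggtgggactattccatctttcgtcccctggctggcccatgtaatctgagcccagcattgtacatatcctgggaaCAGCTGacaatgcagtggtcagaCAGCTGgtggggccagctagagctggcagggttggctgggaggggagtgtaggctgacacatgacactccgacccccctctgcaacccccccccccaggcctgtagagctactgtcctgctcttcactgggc
Chrna1: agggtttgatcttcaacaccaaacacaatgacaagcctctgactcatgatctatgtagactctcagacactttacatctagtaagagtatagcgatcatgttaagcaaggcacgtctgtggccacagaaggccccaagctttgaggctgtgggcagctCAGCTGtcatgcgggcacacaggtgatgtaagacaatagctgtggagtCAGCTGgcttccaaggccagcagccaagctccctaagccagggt
Ube2c: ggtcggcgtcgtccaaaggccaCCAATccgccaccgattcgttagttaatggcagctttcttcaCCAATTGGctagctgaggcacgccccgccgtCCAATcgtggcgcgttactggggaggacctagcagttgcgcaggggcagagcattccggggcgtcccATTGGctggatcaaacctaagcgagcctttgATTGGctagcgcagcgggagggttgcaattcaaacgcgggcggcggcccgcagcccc
Isg15: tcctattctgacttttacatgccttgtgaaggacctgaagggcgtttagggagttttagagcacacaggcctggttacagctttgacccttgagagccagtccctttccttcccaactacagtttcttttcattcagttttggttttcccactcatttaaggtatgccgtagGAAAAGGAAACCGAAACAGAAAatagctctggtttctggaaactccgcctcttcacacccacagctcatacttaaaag
Mmp3: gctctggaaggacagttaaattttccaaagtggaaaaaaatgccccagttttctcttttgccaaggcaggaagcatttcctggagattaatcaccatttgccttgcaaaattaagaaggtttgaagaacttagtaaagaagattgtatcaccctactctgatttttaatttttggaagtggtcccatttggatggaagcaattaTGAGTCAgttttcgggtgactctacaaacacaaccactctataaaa

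The window of Chrng held 2 E-boxes, 155 and 132 bases before the start, and that of Chrna1 held 2 as well, 92 and 44 bases before it. A window was on hand for 10836 of the 16316 gene symbols tested, and 11.8% of those held CAGCTG. In the acetylcholine receptor, sarcomere and calcium handling lists together the share was 44.7% (17 of 38 windows). It was 22.9% in the collagen and matrix glycoprotein lists and 22.2% in the protease list, which are lower in satellite cells. Of genes over 2-fold higher in satellite cells, 14.2% held it, and of genes over 2-fold lower, 13.4%. The 6 CCAAT matches of Ube2c lay 57 to 228 bases before the start. CCAAT was in 84.2% of the mitosis windows (16 of 19) and in 37.1% of all tested windows. The 3 GAAA pairs of Isg15 overlap each other and begin 78, 72 and 66 bases before the start. That motif was in 44% of interferon response windows (11 of 25), against 2.67% of all, 4.96% of genes over 2-fold lower and 1.46% of genes over 2-fold higher. TGANTCA was in 11.1% of the protease windows (2 of 18), in 20% of the interferon response windows, in 4.37% of all tested windows and in 6.87% of all windows in the table. A match describes the letters of these windows only.

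The cell types differed in most of the genes measured. Of 16329 genes tested, 71.7% were called, 35.8% as higher and 35.9% as lower in satellite cells. Differences of over 2-fold were called for 29.8% (11.4% higher, 18.4% lower), and for 63.7% of genes the 4 levels of 1 cell type all lay above the 4 of the other. Counts within a gene list are read against these shares. A sorted population that holds fewer cells of a type and 1 whose cells hold less of an RNA cannot be told apart in bulk libraries.

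Regulators of the myogenic programme were higher in satellite cells for 13 of 15 genes tested, with a median difference of 1.49 against 0.03 over all genes. Pax7 (chr4:139737062-139833528) stood at 37.4, 23.4, 26.1 and 28 CPM in satellite cells and had no count in any FAP library, a difference of at least 938-fold against the floor of 3 counts over the 4 FAP libraries. Myf5 was at 128, 112, 145 and 87.5 CPM in satellite cells and at 0.149, 0.0416, 0 and 0 CPM in FAPs, a difference of 11.08 ± 0.32 (adjusted p = 1.46e-06, and 12.60 without mouse 2b, which held most of the FAP counts). Myod1 reached 565, 342, 329.6 and 504 CPM, and in FAPs 0, 0, 0.0479 and 0.343 CPM. Myog was the most uneven of these across mice, at 872, 466, 947 and 291 CPM in satellite cells against 0.112, 0, 0.191 and 0.0762 CPM in FAPs (difference 12.71 ± 0.27, adjusted p = 1.03e-06). It was lowest in the mouse without a code and highest in mouse 3b. Pax3, the paralogue of Pax7, was at 4.93 ± 0.550 CPM (SD, n = 4) and without a count in FAPs. Msc, a repressor of myogenic basic helix-loop-helix factors, was the exception, at 11.2, 16.8, 14.7 and 9.72 CPM in satellite cells and 23.5, 21, 24.9 and 18.5 CPM in FAPs (difference -0.74 ± 0.14, adjusted p = 0.0021).

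Surface and niche receptors of satellite cells were higher in 14 of 19 genes and lower in 3. Cdh15, the M-cadherin of muscle, led at 527, 276, 362 and 241 CPM against 0.558, 0.499, 0.718 and 0.495 CPM in FAPs (difference 9.27 ± 0.19, adjusted p = 1.03e-06). Met, the receptor for hepatocyte growth factor, stood at 76.6, 69.3, 70.6 and 68.2 CPM against 1.23, 1.83, 0.862 and 1.41 CPM, with little spread among the satellite cell libraries. Fgfr4 was at 86.4 ± 22.6 CPM in satellite cells and 0.377 ± 0.191 CPM in FAPs (SD, n = 4). Calcr, the calcitonin receptor, which is a marker of the quiescent cell, was called higher as well, at 1.90, 0.834, 1.6 and 1.61 CPM against 0, 0.0416, 0 and 0 CPM in FAPs. The 3 receptors that were lower in satellite cells were Fgfr1 (-1.94 ± 0.12), Egfr (-1.78 ± 0.08) and the heparan sulphate proteoglycan Sdc3 (-1.16 ± 0.17).

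Of 15 Notch and quiescence genes, 7 were higher and 6 lower in satellite cells, not far from the shares over all genes (35.8% and 35.9%). Among ligands, Dll1 stood at 47.5, 24.7, 34.3 and 31.3 CPM in satellite cells and 0.112, 0.291, 0.335 and 0.229 CPM in FAPs, and Jag2 at 10.0, 6.78, 6.19 and 9.80 CPM against 0.0372, 0.0416, 0 and 0.0762 CPM. Jag1 had the opposite direction, at 6.92, 11.6, 9.67 and 12.8 CPM against 67.5, 47.3, 56.4 and 46.6 CPM (difference -2.39 ± 0.23, adjusted p = 8.42e-05). Each cell type thus held an excess of a different Notch ligand. Numb, an antagonist of the receptor, was lower in satellite cells (-1.49 ± 0.16). The target Heyl was higher (1.6 ± 0.16), and Hes1 was not called (51.1 ± 14.2 CPM against 61.4 ± 26.7 CPM, SD, n = 4).

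Of the genes of myoblast fusion, 7 of 17 were higher and 8 lower, against 35.8% and 35.9% of all genes. The fusion proteins specific to muscle were among the higher ones. Mymk (myomaker), which drives the mixing of membranes, stood at 111, 74.0, 109 and 42.1 CPM against 0, 0.166, 0 and 0 CPM in FAPs. Mymx (myomixer), which opens the fusion pore, was at 50.01, 29.9, 67.2 and 16.6 CPM against 0.149, 0, 0.0479 and 0 CPM. For both genes the library of the mouse without a code was the lowest of the satellite cells, as it was for Myog. The junction protein Jam2 was among the lower ones (0.548, 1.16, 1.12 and 1.54 CPM against 9.34, 10.4, 8.81 and 14.2 CPM, difference -3.28 ± 0.22). The tetraspanins Cd9 (-1.17 ± 0.08) and Cd81 (-1.06 ± 0.08) were lower too.

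Genes of the acetylcholine receptor and the synapse were higher in satellite cells for 9 of 10 tested, with a median difference of 6.33. Chrnd and Chrng encode the delta and the gamma subunit and lie 4.59 kb apart on chromosome 1 (chr1:87190607-87200070 and chr1:87204657-87212694, both on the plus strand). Chrnd had the largest fitted difference of the genes called with a mean of 5 CPM or more, at 154, 99.9, 114 and 116 CPM in satellite cells and no count in FAPs, at least 3962-fold against the floor of 3 counts over the 4 FAP libraries. Chrng, the subunit of the foetal receptor, stood at 109, 73.7, 86.7 and 61.8 CPM in satellite cells, and a single FAP library held counts (0.0416 CPM in mouse 3a). Its promoter, with the E-box pair shown above, thus belongs to a gene with counts in 1 FAP library only. Chrna1, the alpha subunit, whose promoter holds the other E-box pair, was at 885, 801, 825 and 755 CPM against 0.856, 0.708, 0.191 and 1.07 CPM. Chrne, the subunit that replaces Chrng in the adult synapse, had no count in any of the 8 libraries. Rapsn, which clusters the receptor, was at 139 ± 12.2 CPM against 0.175 ± 0.140 CPM (SD, n = 4). Lrp4, the agrin receptor, showed a smaller difference (2.26 ± 0.09, adjusted p = 2.48e-06).

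Contractile genes followed the same direction, with 27 of 29 sarcomere genes and 13 of 13 genes of excitation and calcium handling higher. Their median differences were 6.57 and 5.65. Myh3, the embryonic myosin heavy chain, stood at 34.5, 21.4, 43.8 and 7.86 CPM in satellite cells, and counts in FAPs came from 1 library (0.0372 CPM). Acta1, skeletal actin, was at 323, 260.0, 404 and 77.5 CPM against 2.31, 1.33, 1.63 and 0.305 CPM (difference 7.62 ± 0.17, adjusted p = 1.07e-06). In both genes the mouse without a code was again lowest and mouse 3b highest. Ttn, which encodes titin, was at 269 ± 63.4 CPM against 0.568 ± 0.139 CPM, and the calcium pump Atp2a1 at 38.2 ± 17.2 CPM against 0.0839 ± 0.144 CPM (SD, n = 4). Of the adult myosins, Myh4 stood at 0.284 ± 0.216 CPM and Myh7 at 0.138 ± 0.157 CPM in satellite cells (SD, n = 4), and neither passed the filter on low counts. Tpm2, a tropomyosin of many contractile cells, was the member called lower, with a small difference (-0.29 ± 0.08, adjusted p = 0.016) and groups that overlapped. That call was lost without the mouse block (adjusted p = 0.12), without scaling (0.059) and without mouse 3a (0.053) or 3b (0.057).

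**Figure D2:**
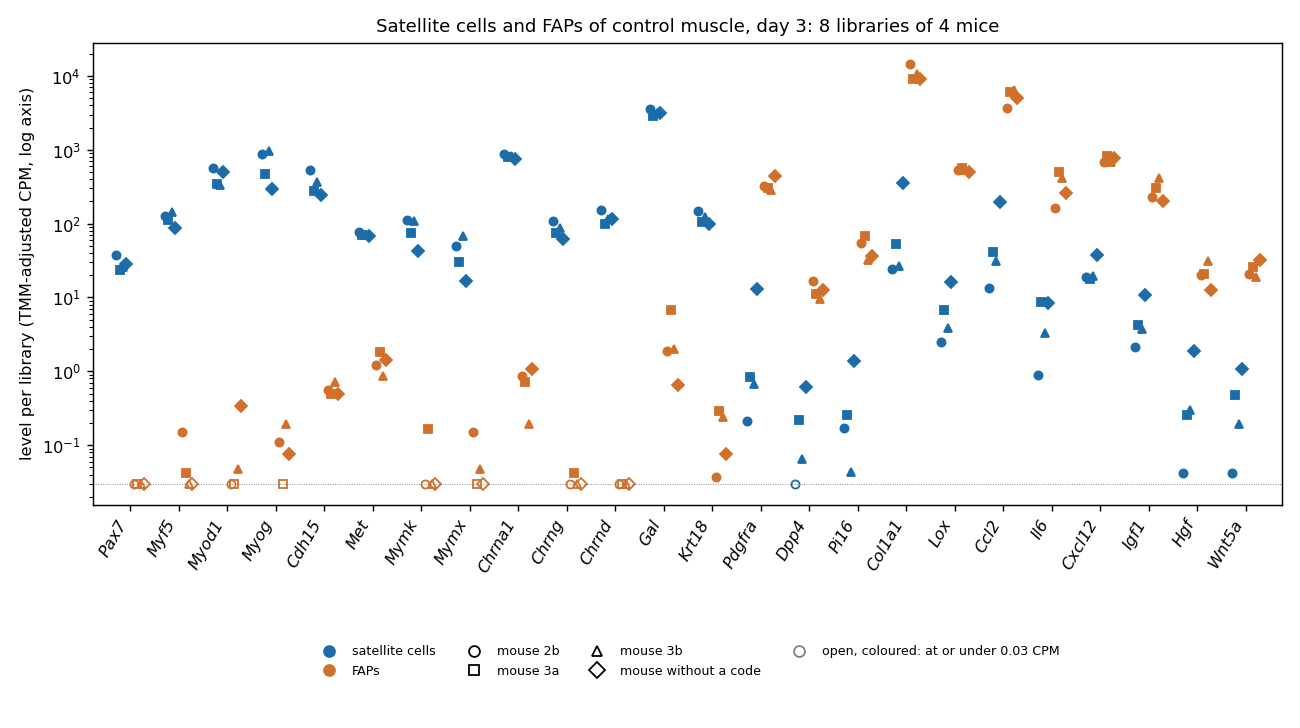
Level of 24 genes in each of the 8 libraries (y axis, TMM-adjusted CPM, log axis), with satellite cells in blue, FAPs in orange and a symbol for each mouse; coloured open symbols on the dotted line are at or under 0.03 CPM. Myog lies at 291 to 947 CPM in satellite cells and at most at 0.191 CPM in FAPs, while Pdgfra lies at 285 to 438 CPM in FAPs and highest among satellite cells (12.8 CPM) in the library without a mouse code.

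Not all of the 10 genes with the largest differences toward satellite cells are muscle genes by background. The nucleoporin Nup210 stood at 32.1, 22.3, 20.4 and 23.2 CPM in satellite cells, with no count in FAPs (at least 801-fold higher). Ptgds, a prostaglandin D synthase, was at 21.2, 21, 27.3 and 18.3 CPM and the lectin Mgl2 at 21, 19.7, 25.2 and 21.7 CPM, again with no count in FAPs. Mgl2 is also known from macrophages. The library with the macrophage transcripts held 21.7 CPM of it, and the part of macrophage RNA in its level was not tested.

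Simple keratins are intermediate filaments known from simple epithelia. Krt8 stood at 98.6, 46.3, 74.9 and 37.7 CPM in satellite cells and 0, 0.0832, 0.0479 and 0.0381 CPM in FAPs, and its partner Krt18 at 146, 106, 124 and 97.9 CPM against 0.0372, 0.291, 0.239 and 0.0762 CPM. The genes are neighbours on chromosome 15 (chr15:101996698-102004482 and chr15:102028180-102032027). Of 15 intermediate filament and lamin genes, 8 were higher and 4 lower. Desmin (Des, 571 ± 105 CPM against 22.2 ± 2.82 CPM) and nestin (Nes, 85.4 ± 15.6 CPM against 2.37 ± 0.670 CPM, SD, n = 4) were among the higher. Nefl, a neurofilament, was lower, at 0.127, 0.0363, 0 and 0 CPM in satellite cells and 13.1, 8.87, 11.2 and 4.27 CPM in FAPs.

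Genes of the cell cycle had moderately higher levels in satellite cells. Of S phase genes 22 of 24 were higher (median difference 1.30), and of mitosis genes 22 of 22 (median 1.12). FAPs expressed them as well: Cdk1, the mitotic kinase, stood at 235, 276, 315 and 275 CPM in satellite cells and 113, 121, 103 and 119 CPM in FAPs (difference 1.29 ± 0.10, adjusted p = 3.83e-05). Mcm5, a subunit of the replicative helicase, was at 223, 181, 171 and 194 CPM against 98.1, 96.2, 77.3 and 106 CPM. Rrm2, a subunit of ribonucleotide reductase, led S phase (2.56 ± 0.11), and Ube2c, a ubiquitin ligase of mitotic exit whose promoter is shown above, led mitosis (1.83 ± 0.12). E2f1 was the member called lower, with overlapping groups (-0.33 ± 0.11, adjusted p = 0.031). That call was lost without the mouse block (adjusted p = 0.065), with upper-quartile scaling (0.088) or none (0.12), and in the joint fit (0.083). It was also lost with a looser filter on low counts and without mouse 2b, 3a or 3b.

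D cyclins were used unequally. Ccnd1 was higher in satellite cells, at 146, 134, 104 and 204 CPM against 38.5, 37.3, 31.1 and 48.0 CPM. Ccnd2 (chr6:127125162-127152193) was lower, at 2.70, 9.06, 5.93 and 12.1 CPM against 196, 190.3, 170.0 and 182 CPM (difference -4.73 ± 0.36, adjusted p = 2.88e-05). Cdk6, a partner of the D cyclins, stood at 319.6 ± 51.8 CPM in satellite cells and 17.7 ± 2.97 CPM in FAPs (SD, n = 4). Inhibitors of the cycle were higher in satellite cells at the same time. Cdkn1a (p21) was at 497, 475, 452 and 408 CPM against 119, 170.3, 94.2 and 111 CPM, and Cdkn1c (p57) at 110.1, 81.2, 144 and 53.5 CPM against 7.78, 7.24, 9.09 and 5.87 CPM. Cdkn2a, the gene of the Ink4a and Arf inhibitors, had the largest difference of the 15 genes in the direction of satellite cells (4.45 ± 0.60, and 5.09 without the mouse lacking a code).

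Genes of energy and biosynthesis were mostly higher in satellite cells. Oxidative phosphorylation genes were higher in 36 of 37 (median 1.11), nucleotide and one-carbon synthesis in 20 of 21 (median 1.15) and ribosome biogenesis in 15 of 16 (median 1.36). Cyc1 of respiratory complex III stood at 382 ± 14.8 CPM against 82.1 ± 9.88 CPM, and Phgdh, the first enzyme of serine synthesis, at 312 ± 5.93 CPM against 55.5 ± 3.22 CPM (SD, n = 4). The 2 exceptions called lower were Aldh1l2, a mitochondrial folate enzyme (-5.33 ± 0.23), and Myc (160.0, 148, 113 and 152 CPM against 375, 389.8, 406 and 411 CPM). Of 22 glycolysis entries, 11 were higher and 7 lower, against 35.8% and 35.9% of all genes. Eno3, the muscle enolase, was at 1621, 1583, 1659.9 and 1506 CPM against 7.81, 9.41, 7.66 and 9.90 CPM. Hk2, a hexokinase, was lower (-2.18 ± 0.14), as was the lactate exporter Slc16a3 (-2.11 ± 0.14). Cholesterol synthesis was lower in 11 of 19 genes (7 with no scaling beyond the library total), none by a difference called as over 2-fold, while its regulator Srebf2 was higher (0.96 ± 0.11).

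**Figure D3:**
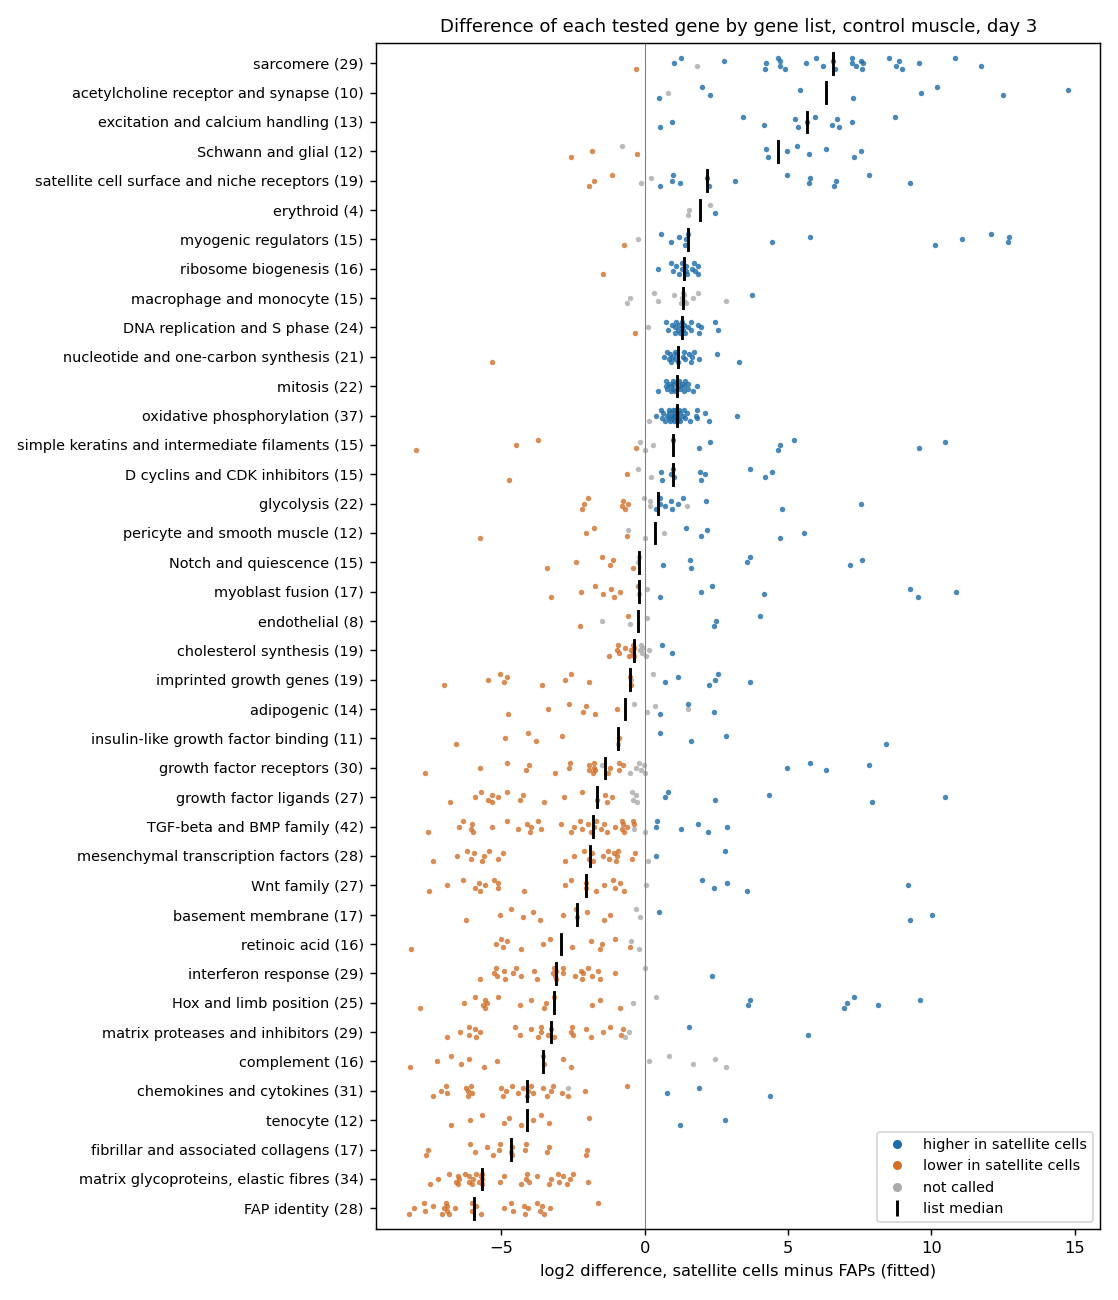
Fitted log2 difference (x axis, satellite cells minus FAPs) of each tested gene, by gene list with the number of genes tested in brackets; blue marks genes called higher, orange genes called lower, grey genes not called, and black bars the list medians. The sarcomere list lies farthest to the right (median 6.57), followed by the acetylcholine receptor list (median 6.33), and FAP identity farthest to the left (median -5.96). The cell cycle and oxidative phosphorylation lists lie close together near 1. The leukocyte list, with 1 gene tested, is not drawn.

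All 28 FAP identity genes were lower in satellite cells, with a median difference of -5.96, and in all 28 the groups did not overlap. Pdgfra stood at 326, 305, 285 and 438 CPM in FAPs and 0.211, 0.834, 0.671 and 12.8 CPM in satellite cells. Its difference was -7.68 ± 0.84, and -8.96 without the mouse whose satellite cell library held 12.8 CPM. Dpp4 and Pi16, which mark universal fibroblast progenitors, were at 16.6, 11.3, 9.62 and 12.8 CPM and 54.1, 68.8, 31.8 and 36.3 CPM in FAPs. In satellite cells the same genes stood at 0, 0.218, 0.0649 and 0.621 CPM and 0.169, 0.254, 0.0433 and 1.39 CPM. Mfap5, a microfibril protein, led the list at 1487, 1826, 1695 and 1105 CPM in FAPs against 1.73, 4.97, 2.40 and 33.6 CPM (difference -8.22 ± 0.95, -9.16 without the mouse lacking a code). Of the 10 genes with the largest differences in this direction, Mst1r, a receptor kinase, was at 8.86, 5.83, 7.18 and 4.99 CPM in FAPs and without a count in satellite cells, at least 279-fold lower against 3 counts over the 4 satellite cell libraries. Tac1, the precursor of substance P, was at 9.30, 21.5, 14.9 and 5.18 CPM in FAPs against 0, 0, 0 and 0.0731 CPM. Pax9, a transcription factor of skeletal mesenchyme, was at 4.47, 6.12, 5.36 and 5.29 CPM against 0, 0.0363, 0 and 0 CPM.

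Mesenchymal transcription factors were lower in satellite cells for 25 of 28 genes and higher for 2. Meox1 led, at 199, 187, 249.6 and 163 CPM in FAPs against 0.464, 0.290, 0.757 and 5.15 CPM. Twist2 was at 4.32, 3.91, 5.27 and 3.69 CPM against 0, 0.218, 0.0216 and 0.110 CPM. Prrx1, a limb mesenchyme factor, showed a smaller difference, at 210.1, 187, 199 and 228 CPM in FAPs and 56.4, 60.2, 63.7 and 51.2 CPM in satellite cells (-1.81 ± 0.11, adjusted p = 1.08e-05). Scx (scleraxis), known as a tendon factor, went the other way, at 13.6, 12.3, 13.1 and 11 CPM in satellite cells against 1.23, 2.37, 4.07 and 0.800 CPM in FAPs (difference 2.78 ± 0.36, adjusted p = 3.99e-04). Of 12 tenocyte genes, 10 were lower in satellite cells, led by Cilp (-6.77 ± 0.68, and -7.37 without the mouse lacking a code), while Scx and Chodl were higher (Chodl 1.23 ± 0.41, adjusted p = 0.031, and 0.13 without the mouse block). Tnmd, a tendon membrane protein, was at 2.91 ± 2.31 CPM against 42.6 ± 31.1 CPM in FAPs (SD, n = 4).

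Hox genes set position along the body and limb axes. Of 25 Hox and limb genes tested, 16 were lower and 7 higher in satellite cells, and the genes called higher included 4 Hoxa genes, Tbx4 and Lbx1. The 9 Hoxb and Hoxc genes that passed the filter (Hoxb2 to Hoxb7 and Hoxc4 to Hoxc6) were all lower in satellite cells, and so was Hoxd8. Hoxb5 stood at 13.2, 5.62, 8.90 and 9.14 CPM in FAPs and 0, 0.181, 0 and 0.292 CPM in satellite cells. Within the Hoxa cluster (Hoxa2 to Hoxa10, chr6:52162417-52240854, minus strand) the sign of the difference turned along the chromosome. It was -0.88 ± 0.28 for Hoxa2 (adjusted p = 0.026, and 0.088 without mouse 2b and 0.071 without mouse 3a) and -1.85 ± 0.23 for Hoxa3. Hoxa4 (0.38 ± 0.29) and Hoxa5 (-0.40 ± 0.25) were not called. Hoxa6 (3.68 ± 0.57) and Hoxa7 (3.60 ± 0.17) were higher. Hoxa9 was at 25.6, 24.0, 21 and 24.1 CPM in satellite cells and 0.0372, 0, 0.144 and 0.419 CPM in FAPs, a difference of 7.32 ± 0.49 (8.64 without the mouse lacking a code, whose FAP library held most of the FAP counts). Hoxa10 reached 8.13 ± 0.57, at 8.39, 9.43, 12.2 and 8.37 CPM, with FAP counts in mouse 3b only. Without that mouse the fit gave 10.84, a size not measured, since no FAP count was left. Satellite cells thus held the 5′ members of this cluster, and FAPs hardly any of their RNA. Hoxa11 had 0.590, 0.580, 0.952 and 0.329 CPM in satellite cells and no count in FAPs, too few to test.

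The T-box factors of the limbs were also divided. Tbx5, which is known from the forelimb, stood at 9.82, 3.12, 2.92 and 5.6 CPM in FAPs and 0, 0, 0.0433 and 0 CPM in satellite cells (difference -7.86 ± 0.62, adjusted p = 3.43e-05). Without mouse 3b the fit gave -10.26, a size not measured, since no satellite cell count was left. Tbx4, which is known from the hindlimb, stood at 11.9, 6.71, 7.77 and 8.70 CPM in satellite cells and 0.0372, 0.0832, 0.144 and 0 CPM in FAPs (difference 7.07 ± 0.49, adjusted p = 2.06e-05, and 7.74 without mouse 3b). Lbx1, a homeobox factor of migrating muscle precursors, was at 3.16, 3.23, 3.20 and 4.13 CPM in satellite cells and had no count in FAPs (at least 112-fold higher). Neighbouring Hox genes overlap on the chromosome, and the use of strand in the counting is not given in the sources used here, so that reads of neighbours may be shared.

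**Figure D4:**
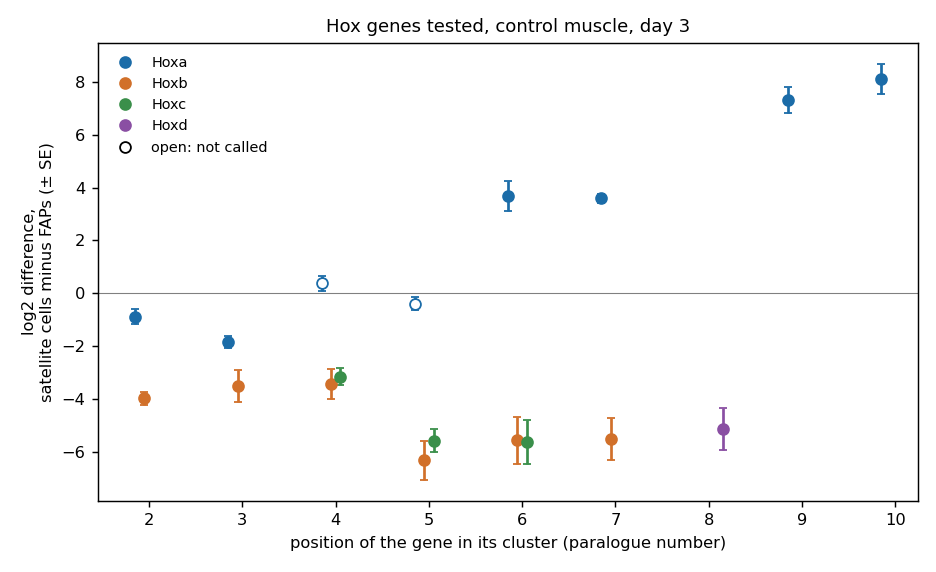
Fitted log2 difference (y axis, satellite cells minus FAPs, bars are ± SE) of the Hox genes that passed the filter, against paralogue number (x axis), with a colour for each cluster; open symbols were not called. Hoxa genes run from -0.88 at Hoxa2 to 8.13 at Hoxa10, while the Hoxb, Hoxc and Hoxd genes drawn are lower in satellite cells.

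Matrix genes were lower in satellite cells without an exception among 17 collagens (median -4.67) and 34 matrix glycoproteins, elastic fibre proteins and crosslinking enzymes (median -5.67). Col1a1, a chain of type I collagen, stood at 14632, 9033, 10469 and 9086 CPM in FAPs and 24.6, 53.3, 26.6 and 358 CPM in satellite cells, with the highest satellite cell level in the mouse without a code. Its difference was -7.57 ± 0.89, -8.39 without that mouse and -6.94 without mouse 2b. Col3a1 was at 14488, 13851, 14270.4 and 12231 CPM against 154, 156, 151 and 439 CPM (-6.09 ± 0.37). Lox, which crosslinks collagen and elastin, was at 539, 564, 532 and 502 CPM against 2.53, 6.85, 3.81 and 16 CPM (-6.47 ± 0.49). The largest difference among the glycoproteins was that of Fbln2, a fibulin (-7.50 ± 0.70, and -8.23 without the same mouse).

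Basement membrane genes were the part of the matrix in which satellite cells also held their own members. Of 17 tested, 12 were lower and 3 higher, of which 2 were called at over 2-fold. The other, Agrn, had overlapping groups (0.49 ± 0.17, adjusted p = 0.034). Its call was lost with a looser filter on low counts, without the mouse block and without mouse 2b, 3a or 3b. Lama4 was lower, at 187, 162, 143 and 166 CPM in FAPs against 0.801, 2.18, 1.17 and 6.03 CPM. Lama5, another laminin alpha chain, was higher, at 42.7, 30.6, 24.0 and 32.8 CPM in satellite cells against 0.0372, 0.0416, 0.0479 and 0.0762 CPM in FAPs (difference 9.24 ± 0.20, adjusted p = 1.03e-06). Col19a1, a basement membrane collagen, was at 15.4, 17.8, 12.7 and 14.0 CPM, with counts in 1 FAP library.

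Matrix proteases and their inhibitors were lower in satellite cells for 25 of 29 genes and higher for 2. Of these 2, Timp4 (1.56 ± 0.53, adjusted p = 0.032) had overlapping groups. It lost its call with DESeq2, a looser filter on low counts, the joint fit and no mouse block. The call was also lost without mouse 2b, 3a or 3b. With the filter of 1 CPM or more in 4 libraries, and without the mouse lacking a code, Timp4 was not tested. Mmp3 (stromelysin 1), whose promoter is shown above, stood at 10.6, 15.5, 13.2 and 12.7 CPM in FAPs and 0, 0, 0.195 and 0.183 CPM in satellite cells. Timp1, an inhibitor of metalloproteinases, was at 467, 956, 622 and 546 CPM against 82.8, 119.8, 107 and 114 CPM (difference -2.54 ± 0.13, adjusted p = 6.9e-06). Mmp15, a membrane-bound metalloproteinase, was higher in satellite cells, at 13.0, 5.98, 6.71 and 11.7 CPM against 0.298, 0.0416, 0.287 and 0.114 CPM.

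Chemokines and cytokines were lower in satellite cells for 27 of 31 genes, with a median of -4.12 (-4.89 without the mouse lacking a code). Ccl2, which attracts monocytes, reached 3631, 6003, 6406 and 5002 CPM in FAPs and 13.5, 41.1, 31.4 and 197 CPM in satellite cells (-6.94 ± 0.66, adjusted p = 8.18e-05, and -7.62 without the mouse lacking a code). Cxcl5, which attracts neutrophils, was at 295, 888, 571 and 513 CPM against 0.211, 4.17, 2.10 and 14.6 CPM. Il6 was at 161, 505, 416 and 262 CPM against 0.886, 8.77, 3.31 and 8.48 CPM, and mouse 2b had the lowest Il6, Ccl2 and Cxcl5 in both cell types. Cxcl12, the ligand of Cxcr4, was at 676, 812, 674 and 771 CPM in FAPs and 18.6, 17.6, 19.3 and 37.3 CPM in satellite cells. Cxcr4 itself had the opposite direction, at 19 ± 2.45 CPM in satellite cells and 0.373 ± 0.175 CPM in FAPs (SD, n = 4). The 3 genes higher in satellite cells were Spp1 (osteopontin, 817, 1108, 1204 and 1928 CPM against 211, 572, 383 and 246 CPM), Mif (0.78 ± 0.12) and Il1b (4.37 ± 0.80). Spp1 and Il1b are also macrophage products and were highest in the satellite cell library with the macrophage transcripts. Without that mouse their differences were 1.54 and 3.30.

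Complement genes were lower in 11 of 16 and higher in none (3 were called higher with limma voom, and 3 without the mouse block). C3, the central component, was at 361, 416, 291 and 368 CPM in FAPs against 0.211, 0.761, 0.151 and 10.8 CPM in satellite cells. Genes of retinoic acid synthesis and response were lower in 14 of 16 and higher in none. Aldh1a2, which makes retinoic acid, was at 112, 217, 149.5 and 137 CPM against 0, 0, 0 and 3.51 CPM (difference -8.16 ± 1.08, adjusted p = 4.13e-04). Without the mouse that held the counts in satellite cells the fit gave -15.13, a size not measured, since no satellite cell count was left. Cyp26b1, which degrades retinoic acid, was lower in satellite cells as well (-4.96 ± 0.40).

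Growth factor ligands were divided, with 17 of 27 lower and 6 higher in satellite cells. Hgf, the ligand of Met, was at 20.02, 21.1, 31.2 and 12.4 CPM in FAPs and 0.0422, 0.254, 0.303 and 1.90 CPM in satellite cells (-5.34 ± 0.78, adjusted p = 6.97e-04, and -6.81 without the mouse lacking a code). Igf1, which promotes muscle growth, was at 228, 307, 417 and 203 CPM against 2.15, 4.28, 3.79 and 10.7 CPM. Fgf7 was at 109, 143, 145 and 126 CPM against 0.548, 1.12, 0.584 and 2.92 CPM. Among ligands of the opposite direction, Gal, which encodes the neuropeptide galanin, had the largest difference, at 3522, 2899, 3115 and 3149 CPM in satellite cells and 1.86, 6.78, 2.01 and 0.648 CPM in FAPs (difference 10.47 ± 0.63, adjusted p = 1.14e-05, and 11.19 without mouse 3a). Pdgfb was at 10.8, 13.2, 9.41 and 10.3 CPM in satellite cells, with counts in 2 FAP libraries, and the difference for Pdgfa was small (0.72 ± 0.13). Their receptors Pdgfra and Pdgfrb were the 2 growth factor receptors with the largest differences toward FAPs, Pdgfrb at 208, 149.8, 193 and 223 CPM against 1.18, 3.15, 3.24 and 8.85 CPM. Tgfa, a ligand of the receptor encoded by Egfr, was higher in satellite cells (2.15, 1.31, 1.21 and 2.45 CPM against 0.0744, 0.125, 0.144 and 0 CPM), while Egfr was lower there. Ngfr, a neurotrophin receptor, was at 28.2, 35.3, 32.2 and 32.5 CPM in satellite cells against 0.335, 0.291, 1.20 and 0 CPM in FAPs.

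Of 42 genes of the TGF-beta and BMP family, 34 were lower and 6 higher in satellite cells. Gdf10, a ligand of this family, led at 22.1, 8.62, 7.71 and 14.3 CPM in FAPs against 0, 0.109, 0.0433 and 0.0731 CPM. Mstn (myostatin), known as a product of muscle, was lower in satellite cells, at 0.211, 0.0725, 0.0433 and 0.110 CPM against 1.64, 1.12, 1.77 and 1.03 CPM. Id1 and Id2, which are induced by BMP signals and block basic helix-loop-helix factors, were higher in satellite cells, Id1 at 807, 730.1, 764 and 738 CPM against 215, 156, 150.5 and 156 CPM and Id2 at 1051 ± 132 CPM against 296 ± 51.2 CPM (SD, n = 4).

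Of 27 Wnt family genes, 21 were lower and 5 higher in satellite cells. Wnt5a was at 20.7, 25.8, 19 and 32.3 CPM in FAPs and 0.0422, 0.471, 0.195 and 1.06 CPM in satellite cells, and the secreted inhibitor Sfrp2 at 226, 245, 298 and 343 CPM against 0.464, 0.580, 0.584 and 10.3 CPM. Wnt7b was the only Wnt ligand of the list called higher in satellite cells, at 10.2, 5.69, 7.33 and 9.54 CPM, with counts in 1 FAP library. The other 4 higher genes were the transcription factors Tcf7 (3.57 ± 0.27) and Lef1 (2.87 ± 0.40) and the target genes Axin2 (2.42 ± 0.27) and Lgr5 (2.00 ± 0.29). The levels of these 4 genes lay between 1.49 and 5.66 CPM in the satellite cell libraries.

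Imprinted growth genes, which are expressed from the allele of 1 parent, were higher in 6 of 19 and lower in 11. Genes of the Dlk1 to Mirg region on chromosome 12 were lower in satellite cells, among them Dlk1 (-4.91 ± 0.71, and -5.98 without the mouse lacking a code), Meg3 (-5.06 ± 0.24) and Rian (-5.46 ± 0.18). Rian stood at 199.96, 153, 198 and 182 CPM in FAPs and 3.58, 3.34, 3.72 and 6.03 CPM in satellite cells. Genes of distal chromosome 7 were higher. Igf2 was at 18.9, 17.2, 18.2 and 12.1 CPM against 2.42, 3.45, 3.83 and 2.74 CPM, and H19, its neighbour, at 199.9, 221, 260.1 and 159 CPM against 132, 131, 161 and 95.5 CPM. Cdkn1c, given above, lies in the same region (chr7:143458339-143461050). Peg3, which is on the same chromosome but far from it, was higher too (2.55 ± 0.11).

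Of 11 genes of insulin-like growth factor binding, 4 were higher and 6 lower. Igfbp2 was at 5.40, 12.5, 10.1 and 5.78 CPM in satellite cells and 0, 0.0416, 0.0479 and 0 CPM in FAPs (difference 8.41 ± 0.40, adjusted p = 4.86e-06). Igfbp5 was at 131, 103, 143 and 79.8 CPM against 63.4, 29.9, 28.2 and 35.2 CPM. Pappa, a protease that cleaves binding proteins, was at 14.7, 16.8, 14.3 and 14.2 CPM in FAPs against 0.0843, 0.0363, 0.130 and 0.366 CPM, the largest difference in the direction of FAPs.

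Interferon response genes were lower in satellite cells for 27 of 29 genes, with a median of -3.11. Tap1, which delivers peptides to class I molecules, was at 3.80, 2.68, 3.14 and 3.51 CPM in satellite cells against 33.1, 28.9, 28.4 and 28.9 CPM in FAPs (difference -3.16 ± 0.12, adjusted p = 2.38e-06). Isg15, whose promoter is shown above, was at 2.84 ± 1.46 CPM against 40.8 ± 9.85 CPM (SD, n = 4). Ifitm1 was the gene of the opposite direction, at 3.33, 5.004, 8.13 and 3.55 CPM in satellite cells against 0.707, 1.12, 0.957 and 0.990 CPM.

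Of 15 macrophage genes tested, 1 was called, Laptm5, a lysosomal protein of leukocytes, at 9.28, 5.37, 6.66 and 76.4 CPM in satellite cells against 0.149, 2.04, 1.72 and 0.419 CPM in FAPs. Without the mouse lacking a code the count was 1 higher and 4 lower, and without mouse 2b none was higher. The number called higher was 8 without the mouse block and 6 with limma voom. Pecam1, which encodes CD31, stood at 0.169, 0.218, 0.324 and 2.41 CPM in satellite cells and 0.781, 0.708, 0.383 and 0.267 CPM in FAPs and was not tested. Of 8 endothelial genes tested, 3 were higher and 2 lower in satellite cells. Cldn5 led the higher ones, at 1.03 ± 0.266 CPM against 0.0593 ± 0.0532 CPM (SD, n = 4). Tek and Egfl7 were lower, Egfl7 with overlapping groups (-0.57 ± 0.19). Among 12 genes of Schwann cells and glia, 8 were called higher and 3 lower in satellite cells. The lower ones were Pmp22, S100b and Cnp, of which Cnp had overlapping groups (-0.27 ± 0.09). Sox10, which defines the lineage, stood at 0.380, 1.12, 0.779 and 0.804 CPM in satellite cells against 0, 0, 0 and 0.0381 CPM in FAPs. Ngfr, given above, belongs to this list as well, and the part of glial RNA in its level was not tested. The sum over the list was nevertheless higher in FAPs (262 to 328 CPM) than in satellite cells (122 to 199.8 CPM), since Pmp22, a membrane protein of many cell types, stood at 274 ± 30.3 CPM in FAPs and 46.8 ± 14.8 CPM in satellite cells (SD, n = 4). Of 12 pericyte and smooth muscle genes, 5 were higher and 4 lower. Des, which skeletal muscle cells also express, was among the higher ones. Myh11, smooth muscle myosin, was at 0.633, 14.9, 9.45 and 8.99 CPM against 0.112, 0.208, 0.239 and 0.0762 CPM. Of 14 adipogenic genes, 7 were lower and 3 higher (9 and 3 without the mouse lacking a code). Their sum was 1432 CPM in the satellite cell library of that mouse, 342 to 417 CPM in the other satellite cell libraries and 433 to 639 CPM in FAPs. Zfp423, a factor of preadipocytes, led at 17.3, 9.99, 12.2 and 17.0 CPM in FAPs against 0.548, 0.290, 0.519 and 0.658 CPM, and Adipoq, a product of mature fat cells, was at 0.0675 ± 0.109 CPM in FAPs (SD, n = 4) and not tested.

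The difference between the cell types was then set against the same difference in control muscle at day 7 (8 libraries of 4 other mice). The test is the day 3 difference minus the day 7 difference, fitted over 16 libraries. Of 18069 genes tested, 8.39% had a higher and 15.4% a lower difference at day 3 (23.8% in all, and 36.7% at an unadjusted p under 0.05). The counts behind these shares, 1516 against 2788, became 1923 against 2444 with RLE scaling and 2274 against 2819 with DESeq2, and the median change over all genes went from -0.12 to -0.04 with either. The days were deposited in separate tables and come from different mice, so that the day, the table and a batch cannot be told apart. Levels at day 7 were scaled within the day 7 libraries. At day 7 the FAP identity genes summed to 3349 to 4769 CPM in satellite cells, the Schwann and glial genes to 555 to 1564 CPM and the pericyte genes to 2776 to 5185 CPM. At day 3 these sums were 572 to 1064, 122 to 199.8 and 733 to 936 CPM. The pericyte list includes Des, which is also in the sarcomere list and held much of the day 3 sum in satellite cells. The pericyte sum is thus not a measure of pericyte RNA alone. The part of the transcripts of these lists in the results that follow was not tested.

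Matrix genes had a larger difference toward FAPs at day 3, in 13 of 18 collagens and 23 of 34 matrix glycoproteins. Col1a1 stood at day 7 at 2435 ± 2499.5 CPM in satellite cells and 36622 ± 27225 CPM in FAPs (SD, n = 4), with spreads about as wide as the means, and the change of the difference was -3.37 ± 1.00 (adjusted p = 0.035). Interferon response genes also had a larger difference toward FAPs at day 3, in 21 of 29. Tap1 stood at 48.4 ± 14.5 CPM in satellite cells and 63.4 ± 7.88 CPM in FAPs at day 7, a difference of -0.46 against -3.16 at day 3 (change -2.72 ± 0.20, adjusted p = 6.76e-05). Msc changed its direction, at 155 ± 33.1 CPM in satellite cells and 24.5 ± 7.49 CPM in FAPs at day 7 (-3.42 ± 0.20, adjusted p = 2.97e-05), and Fzd4, a Wnt receptor, did so too, from -1.43 at day 3 to 0.89 at day 7 (-2.34 ± 0.16, adjusted p = 4.71e-05). Mitosis genes had a smaller excess in satellite cells at day 3 in 17 of 22. Cdk1 was at 137 ± 39.3 CPM in satellite cells and 31.3 ± 21.3 CPM in FAPs at day 7 (-0.99 ± 0.25, adjusted p = 0.019).

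Genes of the opposite kind, with a larger excess in satellite cells at day 3, included 10 of 33 sarcomere genes, 15 of 37 oxidative phosphorylation genes and 8 of 16 ribosome biogenesis genes. The sarcomere sum in satellite cells was nevertheless higher at day 7 (5791 to 10097 CPM) than at day 3 (2337 to 4296 CPM). In FAPs it was 672 to 1155 and 654 to 1041 CPM. Acta1 stood at 2044 CPM in satellite cells and 68.1 CPM in FAPs at day 7, against 266 and 1.39 CPM at day 3. The part of muscle RNA in FAP libraries was not tested. Tnni1, a troponin of slow muscle, was at 32.7 ± 15.6 CPM against 1.26 ± 0.469 CPM at day 7 (3.86 ± 0.42, adjusted p = 3.7e-04). Igfbp2 stood at 1.14 ± 0.139 CPM in satellite cells and 0.739 CPM in FAPs at day 7, against 8.44 and 0.0224 CPM at day 3. Its difference changed by 7.17 ± 1.12 (adjusted p = 0.002). The day 3 FAP level lay under the floor of 3 counts over the 4 FAP libraries (0.0306 CPM), so the size of the change is uncertain. Krt18 was at 2.43 ± 1.08 CPM at day 7 (5.69 ± 0.83, adjusted p = 0.0015), Wnt7b at 0.817 ± 0.143 CPM (5.74 ± 1.52, adjusted p = 0.023) and Gal at 134 ± 31.2 CPM (3.95 ± 0.77, adjusted p = 0.0058). Chrng stood at 35.3 ± 1.96 CPM in satellite cells and 0.159 CPM in FAPs at day 7 (4.57 ± 1.38, adjusted p = 0.038). At day 3 it was at 82.8 and 0.0104 CPM, and that FAP level also lay under the floor. H19 was higher in FAPs at day 7 (957 ± 321 CPM against 297 ± 46.5 CPM in satellite cells), the reverse of day 3 (2.36 ± 0.18, adjusted p = 8.26e-05). Igf2, which lies beside H19, stood at day 7 at 379 ± 74.8 CPM in satellite cells and 296 ± 209 CPM in FAPs, levels scaled apart from those of day 3 (change of the difference 1.80 ± 0.58, adjusted p = 0.049). Of 29 Hox and limb genes, none had a higher signed difference at day 3 than at day 7, and 6 had a lower one. A lower signed difference is a larger deficit for a gene below 0 and a smaller excess for a gene above 0. Hoxa9 stood at 25.7 ± 4.17 CPM in satellite cells and 0.429 ± 0.450 CPM in FAPs at day 7.

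**Figure D5:**
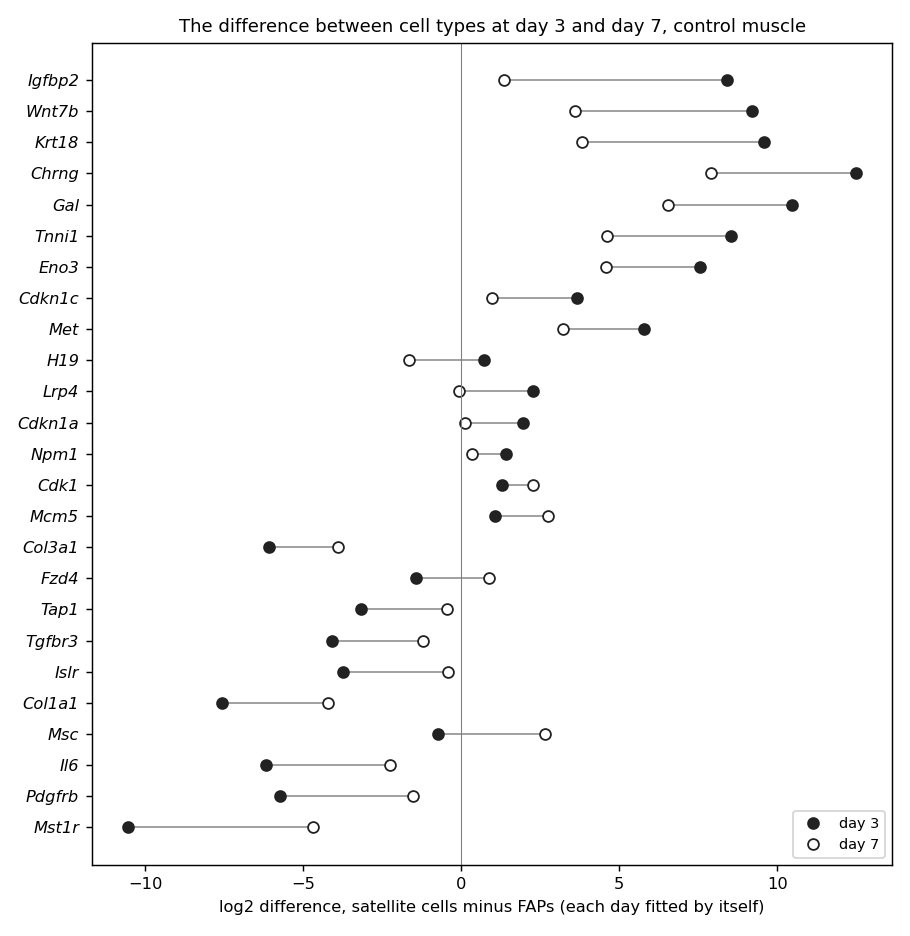
Fitted log2 difference (x axis, satellite cells minus FAPs) at day 3 (filled) and at day 7 (open) for 25 genes in order of the change between days; each day was fitted by itself. The excess of Igfbp2 and Krt18 in satellite cells and the deficit of Tap1 and Col1a1 were larger at day 3, and Msc, Fzd4 and H19 lie on opposite sides of 0 on the 2 days.

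The same difference in grafted muscle at day 3 (8 libraries with the same mouse codes) gave no call among 17445 genes tested with edgeR (0% higher, 0% lower), with 498 genes (2.85%) at an unadjusted p under 0.05, and DESeq2 called 1 gene. In grafted muscle the macrophage genes summed to 16.9 to 2103 CPM in satellite cells and 19 to 5828 CPM in FAPs. Of the named genes, Igfbp2 was at 7.66 CPM in satellite cells and 0.119 CPM in FAPs of grafted muscle, and Dll1 at 36.7 CPM and 1.31 CPM. The control minus grafted change of the difference was 2.27 ± 0.58 for Dll1 and -0.53 ± 0.20 for Tap1 (edgeR adjusted p of 1 for both). A miss of the threshold does not show that the difference was the same with the graft.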

How the data were processed

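RNA was sequenced from satellite cells and FAPs sorted from supraspinatus muscle, per the labels, in 4 mice a day. The authors deposited expected counts per gene in a table for each day (per the file values, 71.3% of values above 0 at day 3 are whole). DRAGEN and mm10 are named in the submitters' processing notes; for versions and the strand setting the sources used here give nothing. Counts were rounded, and 287 repeated identifiers were dropped from 55774 entries.

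Genes passed filterByExpr (10 counts, 15 in all). Libraries were scaled by TMM and tested with edgeR 4.0.16 in R 4.3.3 (quasi-likelihood F test, Benjamini-Hochberg over all genes tested, threshold 0.05), with glmTreat for differences over 2-fold. SE is the difference divided by the square root of F. Interactions with day and graft used 16 libraries each. Alternatives were other scalings, DESeq2 1.42.0, limma 3.58.1 (voom), other filters, no block, a joint fit and leaving out each mouse. In data simulated for the comparison of the cell types (16036 genes), 100 genes were changed by 2-fold and 100 by 4-fold. Of these, 66% and 93% were recovered. In the data a far larger share of genes was called (71.7%), so these values do not measure the power of the comparison.

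Per the labels, a pair of samples shares its mouse, so the mouse is a block. Correlations of deviations within a mouse were 0.232 (2b), 0.134 (3a), 0.120 (3b) and -0.0764 (the pair without a code, whose pairing is inferred). Replicate counts differed beyond sampling noise (chi-square per degree of freedom of at least 15.5).

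The 41 gene lists and the panel of 40 genes were chosen with earlier results of these data known. Named genes are that panel, the 10 called genes with the largest difference in each direction (mean of 5 CPM or more, groups not overlapping), the leading member and the opposite members of each list, and list genes with the smallest interaction p. Other genes named as examples, such as Krt18, Rapsn, Hoxb5 and Tbx4, were chosen after their values were seen. Of the list genes, 777 of 855 passed the filter. Some named genes are not reported here.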

Additional observations from a re-analysis of the deposited data

Results flagged for a closer look

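Single libraries that lay far from the other 3 of their group (Dixon's test, 95% level, which chance passes in about 1 of 20 groups) were found in 15 of 111 groups of 4, over 62 genes. The satellite cell library of the mouse without a code accounted for 12 of them. It was the highest of its group for the FAP genes Pdgfra (12.8 CPM), Pi16 (1.39 CPM), Mfap5 (33.6 CPM), Dpt (15.9 CPM) and Smoc2 (16.3 CPM). The same held for Col1a1 (358 CPM) and Col3a1 (439 CPM). It also held for the secreted factors Ccl2 (197 CPM), Cxcl12 (37.3 CPM), C3 (10.8 CPM) and Hgf (1.90 CPM), and for the interleukin 33 receptor Il1rl1 (6.32 CPM). This library also held the macrophage transcripts described above, and the part of other cells in these 12 values was not tested. The remaining 3 were Myod1 in the FAP library of the same mouse (0.343 CPM), Pdgfa in satellite cells of mouse 3a (89.6 CPM) and Tap1 in FAPs of mouse 2b (33.1 CPM).

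The difference between the cell types itself differed between day 3 and day 7 (edgeR interaction, adjusted p under 0.05) for 31 of the genes looked at, given here as the log2 change, day 3 minus day 7. Among satellite cell and muscle genes it was 2.55 for Met, 4.57 for Chrng, 2.72 for Acta1, 3.86 for Tnni1, 2.96 for Eno3, 2.31 for Lrp4, 5.46 for Nup210, 1.92 for Dll1 and -3.42 for Msc. Among genes of growth and the cell cycle it was -0.99 for Cdk1, -1.71 for Mcm5, 1.80 for Cdkn1a, 1.08 for Npm1, 1.80 for Igf2 and 2.36 for H19. Among matrix and FAP genes it was -0.50 for Prrx1, -3.37 for Col1a1, -2.20 for Col3a1, -3.39 for Lox, -3.34 for Islr, -5.13 for Dpt, -5.89 for Mst1r, -4.67 for Tac1 and -5.27 for Serpina3f. Among genes of signalling and interferon response it was -3.25 for Ccl2, -3.96 for Il6, -2.88 for Igf1, -2.49 for Wnt5a, -2.90 for Tgfbr3, -2.34 for Fzd4 and -2.72 for Tap1. At day 7 the FAP identity genes in satellite cells summed to 3349 to 4769 CPM against 572 to 1064 CPM at day 3, and the part of these transcripts in the changes was not tested.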

How the results depend on the processing

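The count of 11702 genes called between the cell types, the 4864 called at over 2-fold and the 4304 with a changed difference between the days stayed within 1.5 times under each alternative run for it. The first count was run with RLE, upper-quartile and no scaling, DESeq2, limma voom, 2 other filters, a joint fit and each mouse left out (10551 to 11566). The over 2-fold count was run with the same scalings, filters and mice left out (4321 to 5024), and the count for the days with RLE scaling, DESeq2, 1 other filter and each day 3 mouse left out (2988 to 3651). The mouse was a block in the main design. With no replicate block, 11246 genes were called, 4704 at over 2-fold and 3197 for the days. Of the named genes, Tpm2, E2f1, Agrn, Timp4, Egfl7, Cnp, Chodl and Fgfr3 lost their calls without the pairing. The unpaired counts of lists moved for genes called higher of the macrophage (8 against 1), complement (3 against 0), erythroid (4 against 1), protease (1 against 2) and tenocyte lists (1 against 2). They moved for genes called lower of the sarcomere and S phase (0 against 1 each) and endothelial lists (1 against 2). With limma voom, which kept the mouse block, 6 macrophage, 3 complement and 4 erythroid genes were called higher. In the joint fit 1 mesenchymal transcription factor was called higher, against 2. For the contrast with grafted muscle, DESeq2 called 1 gene, which was lower, against 0 by edgeR. Scaling by the library total alone moved the median of all genes from 0.03 to 0.15, and no called gene named in the text changed direction. Lyz2, a macrophage gene that was not called (0.32), ranged from -0.80 to 1.10 with a mouse left out, and the low end is the value without the mouse lacking a code. Counts of 0 limit single libraries to 0.0649 to 0.144 CPM.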
